A study of Oryza sativa with 2 samples.

Results

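Tonoplast intrinsic proteins (TIPs) are the aquaporins of the vacuole membrane, and their transcripts were followed in rice seedlings raised in water or in a mixed salt solution. The set comprised 10 listed loci of 55986 gene models in the deposited table, taken by locus identifier from a list of the family. They lie on chromosomes 1, 2, 3, 4, 5, 6 and 10.

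Aquaporins are membrane channels that let water, and in some members small uncharged molecules such as urea, ammonia or glycerol, cross a membrane along its gradient. TIPs sit around the vacuole, the large store of water and ions in a plant cell, where they let water move quickly between vacuole and cytoplasm. TIP1 and TIP2 genes are active in growing and mature vegetative organs, TIP3 genes are known from the protein storage vacuoles of seeds, and TIP5 is known from pollen in Arabidopsis.

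The seedlings were of the cultivar CARI Dhan 7 and 14 days old. Control seedlings had distilled water, and salinity seedlings had a solution of sodium chloride, sodium sulfate, calcium chloride and magnesium sulfate with an electrical conductivity of 6 dS/m. RNA came from whole seedlings, so roots and shoots are mixed in each library. There was 1 library for each condition, which leaves the spread between seedlings unknown and allows no p-value. Every difference given here is between these libraries and has not been repeated. The design asks which transcripts differ between seedlings raised with and without salt.

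The total was 45359020 counts for the control library and 15031328 for the salinity library. Every salinity value above 0 was even, against 61.73% of control values, so intervals were computed on an approximate read-pair scale of 2 control or 4 salinity counts per pair. All intervals are 95% and cover counting error only, since the reads carried no molecular identifiers and may repeat a molecule. A gene was called higher or lower under salinity when the whole interval of its ratio lay beyond 2-fold. Levels are counts scaled to a library of 1000000 (CPM), or in CPM per kilobase of exon where genes are compared. Of 26638 tested gene models, those reaching a combined 10 counts, 2124 (7.97%) were called higher and 1376 (5.17%) lower, 13.1% in all. With total-count scaling the split turned to 1639 higher and 2127 lower. In bulk seedlings, fewer cells of a type and less RNA per cell cannot be told apart.

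The names of the listed loci were checked by their place among neighbouring genes in a RefSeq table of gene names, and they are spelled as in its synonyms (TIP1-1 for TIP1;1). At 7 of the 10 loci the listed name was in place, namely TIP1-1, TIP1-2, TIP2-1, TIP2-2, TIP3-2, TIP4-1 and TIP5;1. The placement of TIP4-1 is less firm than the others, with 82.2% overlap and no anchor gene within 200 kb. The list gives TIP3-1 as LOC_Os10g35520, but the name table puts it at LOC_Os10g35050 (chromosome 10, 18701132 to 18702561), a locus outside the list. LOC_Os10g35520 is therefore described by its identifier, and TIP3-1 at LOC_Os10g35050 is an addition made after its values were seen. The name table also puts TIP4-2 at LOC_Os01g13130, which the list calls TIP4;3, and holds no TIP4;3 on chromosome 1. Neither name was thus placed at LOC_Os01g13120, which the list calls TIP4;2. The placement of TIP4-2 had 87.5% overlap and 2 anchor genes within 200 kb. As these loci lie 3396 bases apart, it may not tell one from the other, and the name TIP4-2 is provisional. Coordinates are those of the deposited table, and its genome build is unstated.

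TIP1-2 was 5.62-fold higher and TIP4-1 was 2.58-fold lower under salinity. The main TIP transcript, TIP1-1, had a log2 ratio of -0.06, and those of TIP2-1 and TIP2-2 were -0.55 and -0.46, inside the 2-fold range. TIP3-1, the seed-type gene added to the list, was 23.5-fold higher from a low control level. Of the listed loci 9 could be tested, of which 1 (11.1%) was higher and 1 (11.1%) lower, beside 7.97% and 5.17% of all tested models. These shares are 1 gene each, so they do not set the family apart from the rest of the table. Intervals on the deposited counts called the same TIP genes, with 10.6% of all models higher and 10.3% lower, 21% in all. The median log2 ratio of the 9 loci was -0.06, beside -0.08 over all tested models.

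**Figure D1:**
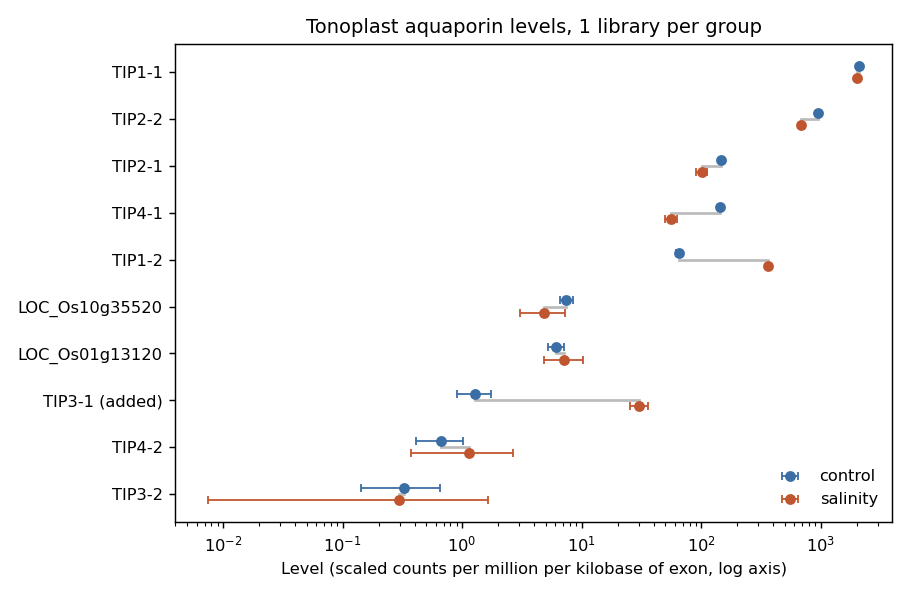
Level of each TIP gene in the control (blue) and salinity (orange) library, as scaled CPM per kilobase of exon on a log axis, with 95% counting intervals and 1 library per group. TIP1-2 and TIP3-1 lie to the right in the salinity library, TIP4-1 lies to the left, and TIP5;1, with 0 counts in both, is not drawn.

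TIP1-1 (LOC_Os03g05290, chromosome 3, 2562732 to 2564648, minus strand, 2 exons) was the most abundant TIP transcript in both libraries, with 121774 control and 32550 salinity counts. Its level, per kilobase of exon, was 2114 in control seedlings and 2033 under salinity, ranks 16 and 26 among all gene models. The interval of its log2 ratio ran from -0.09 to -0.02. This ratio follows the library scaling, at -0.31 with total counts and 0.03 relative to the median of all tested models. A higher ratio was seen in 13027 of the tested models, so TIP1-1 lay near the middle of the table.

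TIP1-2 (LOC_Os01g74450, chromosome 1, 43115742 to 43117231, minus strand, 2 exons), the other member of its subfamily, had 4525 control and 7062 salinity counts. Its level per kilobase was 64.8 in control seedlings and 364 under salinity, a move from rank 1519 to rank 211. The log2 ratio was 2.49 (interval 2.40 to 2.58), and 1124 of the tested models had a higher one. Of its direct neighbours, LOC_Os01g74440 had 0 control and 8 salinity counts, too few to be tested. The other, LOC_Os01g74460, had a log2 ratio of 0.16 and was not called.

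The balance inside the TIP1 subfamily can be read within each library, where it does not depend on library scaling. Per kilobase of exon, the level of TIP1-1 was 32.6 times that of TIP1-2 (interval 31.3 to 34.0) in the control. Under salinity it was 5.58 times (interval 5.30 to 5.88), so these intervals were far apart. The summed TIP1 level per kilobase was 2179 in control seedlings and 2397 under salinity, a log2 ratio of 0.14. Unlike the balance, this sum follows the library scaling. Total-count scaling moved the median of all models by -0.25, more than this ratio, so the sign of the sum's ratio is not fixed.

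TIP2-2 (LOC_Os06g22960, chromosome 6, 13407319 to 13408859, plus strand, 3 exons) came next to TIP1-1 in level in both libraries. Its 63486 control and 12812 salinity counts gave levels of 944 and 685 per kilobase. The interval of its log2 ratio ran from -0.51 to -0.41.

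TIP2-1 (LOC_Os02g44080, chromosome 2, 26608361 to 26609658, minus strand, 3 exons), whose Arabidopsis namesake carries ammonia as well as water, had 8024 control and 1528 salinity counts. Its levels per kilobase were 147 and 101, and the interval of its log2 ratio ran from -0.70 to -0.39, overlapping that of TIP2-2. The level of TIP2-2 was 6.41 times that of TIP2-1 (interval 6.20 to 6.62) in the control and 6.79 times (interval 6.11 to 7.57) under salinity. The balance inside the TIP2 subfamily thus differed by less than its counting error, unlike that inside TIP1. The summed TIP2 level per kilobase was 1091 in control seedlings and 786 under salinity.

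TIP4-1 (LOC_Os05g14240, chromosome 5, 8000545 to 8002994, plus strand, 2 exons) was the listed locus called lower. It had 10892 control and 1174 salinity counts, and its level per kilobase was 144 in control seedlings and 55.8 under salinity. The log2 ratio was -1.37 (interval -1.54 to -1.20), with 22714 of the tested models above it. In the control TIP2-1 and TIP4-1 had overlapping levels, with a ratio of 1.02 (interval 0.983 to 1.07), whereas under salinity that ratio was 1.81 (interval 1.55 to 2.11).

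The other TIP4 loci are neighbours on chromosome 1, both on the plus strand with 2 exons and 3396 bases apart. LOC_Os01g13120 (7297672 to 7298971) had 370 control and 120 salinity counts, levels of 6.14 and 7.16 per kilobase and a log2 ratio of 0.23 (interval -0.39 to 0.78). TIP4-2 (LOC_Os01g13130, 7302368 to 7303788) had 42 and 20 counts, levels of 0.668 and 1.15 per kilobase and a log2 ratio of 0.80 (interval -0.99 to 2.22). In 1 random thinning of the control to the salinity depth, the log2 ratios were 0.79 for LOC_Os01g13120 and 2.33 for TIP4-2, neither of them called. No difference was detectable at this depth for either locus, though both intervals at full depth lay above that of TIP4-1. The summed level of the 3 TIP4 loci was 151 in control seedlings and 64.1 under salinity, most of it TIP4-1.

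TIP3-1 (LOC_Os10g35050, plus strand, 3 exons) had 79 control and 518 salinity counts. Its level per kilobase was 1.28 (interval 0.915 to 1.75) in control seedlings and 30.3 (interval 25.3 to 36.0) under salinity. The log2 ratio was 4.55 (interval 4.04 to 5.11), and 298 of the tested models had a higher one. Its direct neighbours were not called, with log2 ratios of -0.45 at LOC_Os10g35040 and 0.55 at LOC_Os10g35060. TIP3-1 remained a minor transcript, since TIP4-1 stood at 1.84 times its level under salinity.

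TIP3-2 (LOC_Os04g44570, chromosome 4, 26380265 to 26381607, plus strand, 3 exons), the other seed-type gene, had 16 control and 4 salinity counts. The 4 salinity counts stand for 1 read pair, and the log2 ratio of -0.03 had an interval from -5.62 to 2.75, which leaves the direction undetermined. TIP5;1 (LOC_Os04g46490, chromosome 4, 27575661 to 27576996, minus strand, 3 exons) had 0 counts in both libraries. At a floor of 3 read pairs this allows a control level of up to 0.121 CPM and a salinity level of up to 0.872 CPM.

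LOC_Os10g35520 (chromosome 10, 18998799 to 19001037, plus strand, 5 exons), the locus listed as TIP3-1, had 512 control and 92 salinity counts. Its levels per kilobase were 7.45 and 4.82, with a log2 ratio of -0.62 (interval -1.31 to -0.01), opposite in sign to that of TIP3-1.

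None of the listed loci or LOC_Os10g35050 shared exon bases with another gene model. Reads of closely related TIP copies may still have been split or lost, as it is not known how reads with several matches were counted.

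**Figure D2:**
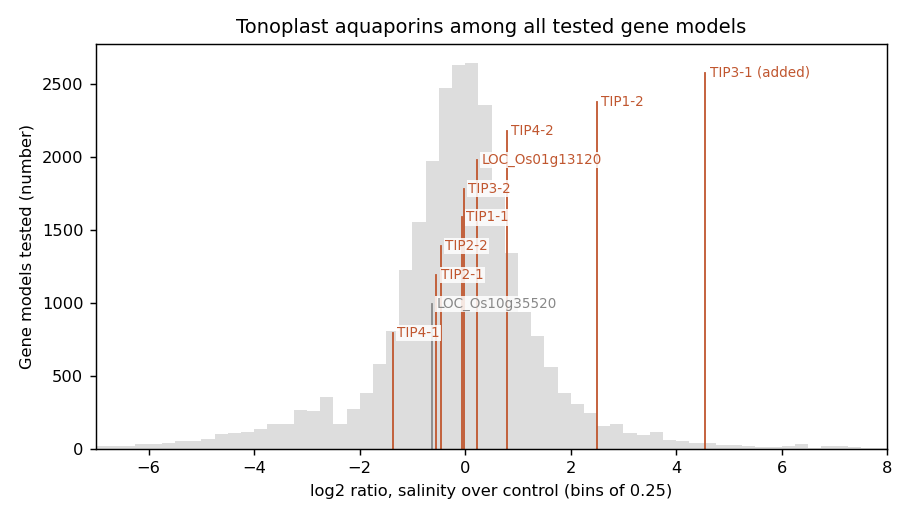
Histogram of the log2 ratio of salinity over control for tested gene models, in bins of 0.25. The axis runs from -7 to 8, so some of the 26638 tested models fall outside it. Lines mark the tested TIP loci (LOC_Os10g35520 in grey, line heights only for spacing). Most TIP loci lie within the bulk of the distribution, TIP4-1 lies at -1.37 on its lower side, and TIP1-2 at 2.49 and TIP3-1 at 4.55 lie in the upper tail.

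The order of levels per kilobase in the control was TIP1-1, TIP2-2, TIP2-1, TIP4-1, TIP1-2, LOC_Os10g35520, LOC_Os01g13120, TIP3-1, TIP4-2, TIP3-2 and TIP5;1. Among neighbours in this order, counting intervals overlapped for TIP2-1 and TIP4-1, for LOC_Os10g35520 and LOC_Os01g13120, for TIP3-1 and TIP4-2, and for TIP4-2 and TIP3-2. Under salinity the order was TIP1-1, TIP2-2, TIP1-2, TIP2-1, TIP4-1, TIP3-1, LOC_Os01g13120, LOC_Os10g35520, TIP4-2, TIP3-2 and TIP5;1. There the overlaps were between LOC_Os01g13120 and LOC_Os10g35520, between TIP4-2 and TIP3-2, and between TIP3-2 and the level that the floor allows for TIP5;1. TIP1-2 passed TIP2-1 and TIP4-1 in this order, and TIP3-1 passed LOC_Os01g13120 and LOC_Os10g35520.

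The make-up of the family can be given as shares of its read pairs, here with TIP3-1 in place of LOC_Os10g35520. TIP1-1 took 58.2% in the control (interval 57.9 to 58.5) and 58.3% under salinity (interval 57.5 to 59.2), a difference smaller than its counting error. TIP2-2 took 30.4% (interval 30.1 to 30.6) and 22.97% (interval 22.3 to 23.7). TIP1-2 took 2.16% (interval 2.08 to 2.25) and 12.7% (interval 12.1 to 13.2). A larger share of TIP1-2 thus stood beside smaller shares of TIP2-2 and TIP4-1. TIP4-1 took 5.21% (interval 5.07 to 5.34) and 2.104% (interval 1.87 to 2.36), and TIP3-1 took 0.0378% and 0.929%.

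**Figure D3:**
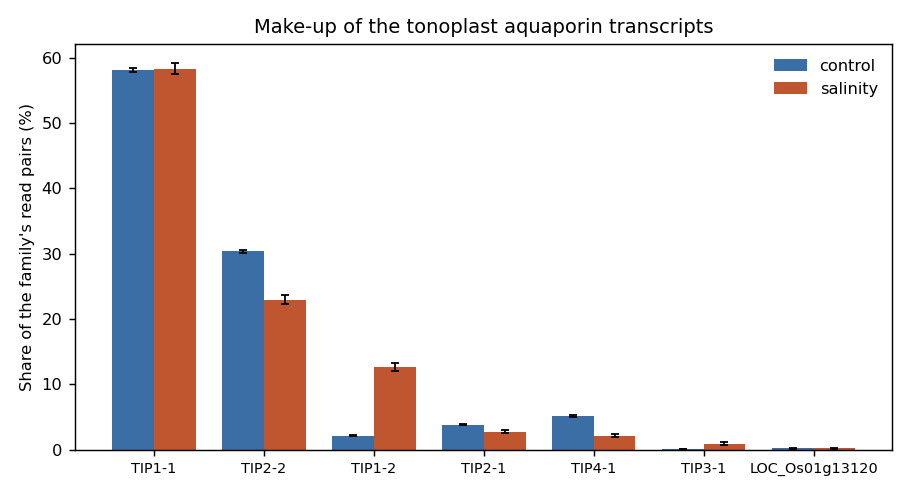
Share of the read pairs of the TIP family, in percent, in the control (blue) and salinity (orange) library, with 95% exact binomial intervals. The family here has TIP3-1 in place of LOC_Os10g35520, and TIP4-2, TIP3-2 and TIP5;1 are not drawn. TIP1-1 takes 58.2% and 58.3%, TIP2-2 30.4% and 22.97%, and TIP1-2 2.16% and 12.7%.

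Summed over the 10 listed loci, the level per kilobase was 3428 in control seedlings and 3253 under salinity, a log2 ratio of -0.08. With TIP3-1 in place of LOC_Os10g35520 the sums were 3422 and 3278. The summed level follows the library scaling, and its log2 ratio was -0.33 with total counts.

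The other aquaporins were set beside the TIPs. Plasma membrane aquaporins (PIPs) carry water into and out of the cell, NIPs carry silicon, boron and other small solutes, and SIPs are small basic proteins of inner membranes. Names were in place for 17 of 23 listed genes, and of 16 tested 2 (12.5%) were higher and 1 (6.25%) was lower, near the 7.97% and 5.17% of all tested models. PIP1-2 stood at 1110 CPM and 2625 CPM (log2 ratio 1.24, interval 1.21 to 1.28) and was no longer called with total-count scaling. PIP1-3 stood at 145 CPM and 390 CPM (log2 ratio 1.43, interval 1.34 to 1.52). NIP1-1 was lower, from 112 CPM to 6.97 CPM, with a log2 ratio of -4.00 (interval -4.65 to -3.43).

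The median log2 ratio was 0.72 over 9 PIP genes, -0.20 over 5 NIP genes and 0.41 over all 16 other aquaporins, beside -0.06 over the TIP loci. The median over the 16 was 0.55 when PIP2-8, which had 28 control counts and 0 salinity counts, was placed at its bound. In summed level per kilobase the PIP genes stood at 2981 in control seedlings, below the TIP sum, and at 4860 under salinity, above it. The PIP sum leaves out 2 of 11 listed genes whose names were not in place, while the TIP sum holds all 10 listed loci. These sums therefore do not compare whole families. They describe the libraries and were not tested.

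**Figure D4:**
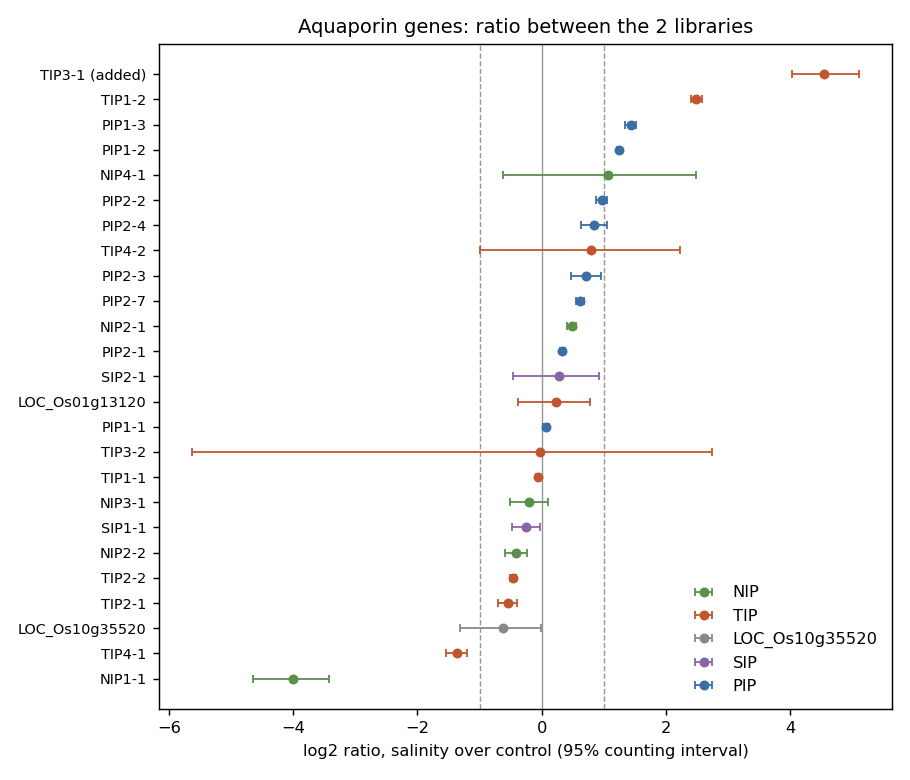
Log2 ratio of salinity over control with its 95% counting interval for the tested TIP loci (orange, LOC_Os10g35520 in grey) and for PIP (blue), NIP (green) and SIP (purple) genes with salinity counts above 0. Dashed lines mark 2-fold, and TIP3-1, TIP1-2, PIP1-3 and PIP1-2 lie wholly above the upper line while TIP4-1 and NIP1-1 lie wholly below the lower line.

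Likeness was measured as the distance between log2 levels per kilobase over both libraries, a description on 2 points. The other aquaporins nearest to TIP1-2 were PIP1-3 (distance 0.75) and PIP2-2 (1.16). Those nearest to TIP4-1 were NIP2-2 (1.005) and SIP1-1 (1.39), and those nearest to TIP1-1 were PIP2-1 (1.31) and PIP1-2 (1.36). TIP3-1 had none close by, with SIP2-1 at 3.06 and NIP3-1 at 3.70.

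Markers of seedling organs were set beside these results, using those whose names were in place (6 of 8 root, 3 of 7 leaf, 4 of 8 grain, and 2 of 4 flower and pollen). Of 6 root markers none was at 0, and their summed level was 955 CPM in control seedlings and 757 CPM under salinity. Lsi1, a silicon channel among them, is the aquaporin NIP2-1 already counted above, and without it the sum was 595 CPM and 254 CPM. NRT2.1, a nitrate transporter, was higher (log2 ratio 1.99), NAS1, a nicotianamine synthase of iron uptake, was lower (-3.19), and 4 root markers were not called. The root calls were 1 gene each way, beside 7.97% of all tested models called higher and 5.17% lower. Of 3 green leaf markers none was called or at 0, and their sum was 15967 CPM and 20455 CPM. They did not move together. CAB1R stood at 6747 CPM and 11512 CPM, CAB2R at 8605 CPM and 8602 CPM, and PORB at 616 CPM and 341 CPM. The part of root and leaf proportions in the ratios of TIP1-2 and TIP4-1 was not tested.

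Of 4 grain markers none was higher and 2 were lower, beside 7.97% and 5.17% of all tested models. Their summed level was 1417 CPM in control seedlings and 5.52 CPM under salinity, where AMY1A and GLUA1 were at 0. AMY1A, an alpha-amylase of germinating grain, had 68861 control counts and 0 salinity counts and was called lower. Without it the sum was 27.0 CPM and 5.52 CPM. EMP1, a late embryogenesis protein gene, was lower (log2 ratio -2.58), and OLE18, an oil body protein gene of embryo and aleurone, stood at 3.84 CPM and 1.74 CPM. OLE18 and GLUA1 were not called, and the interval of each ratio included 0. The part of grain tissue in the ratio of TIP3-1 was not tested. Of 2 flower and pollen markers C6 was at 0 in both libraries, as TIP5;1 was, and TDR stood at 1.78 CPM and 1.45 CPM.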

How the data were processed

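Libraries were made from poly(A) RNA out of 800 ng of total RNA with NEBNext Ultra II reagents, per the labels' protocols. The authors deposited raw counts for each gene model, with exon positions and exon length. FastQC, MultiQC, STAR, featureCounts and DESeq2 are named in the submitters' processing notes. For software versions, genome build, annotation and strand use: not given in the sources used here.

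Models reaching a combined 10 counts were tested. Library sizes were scaled with TMM factors (edgeR 4.0.16, R 4.3.3). Log2 ratios used scaled counts and a prior of 0.5, with exact conditional binomial (Clopper-Pearson) 95% intervals. Levels have exact Poisson intervals. The read-pair scale is inferred from the values and approximate, since 11654 control values are odd and 70.56% of salinity values are multiples of 4. No replicated test could be made with 1 library per group.

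Members and lists were chosen with earlier results of these data known. Names were accepted where the RefSeq table (assembly ASM3414082v1) held them at the listed place, judged from flanking genes of equal span within 5 bases. The text names all listed TIP loci, up to 4 called genes of each other list by size, members completing a count of 5 or fewer, and the 2 aquaporins nearest in level to each called and to the most abundant TIP gene. LOC_Os10g35050, PIP2-8, Lsi1, CAB1R, CAB2R, PORB, OLE18, GLUA1, C6, TDR and the uncalled neighbours of TIP1-2 and TIP3-1 were named after their values were seen. Alternatives in scaling (total counts, DESeq2 1.42.0 size factors, upper quartile), filter, prior, size rule, pair scale and depth were tried. The size rule was tried on read pairs simulated under the counting model that its intervals assume. That simulation cannot test the pair scale or the spread between libraries. Python 3.11.15, scipy 1.17.1 and matplotlib 3.10.9 served for the rest.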

Additional observations from a re-analysis of the deposited data

How the results depend on the processing

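Over all alternatives run, the log2 ratio of TIP1-2 lay between 2.24 and 2.57 and that of TIP3-1 between 4.30 and 4.64. Both were called higher under 13 of 13 alternatives with a call, all drawn from the same libraries. By construction, the 1.5-fold interval, the point estimate, the other pair scales and the other priors could not remove a call. TIP4-1 lay between -1.62 and -1.28 and lost its call only with an interval beyond 4-fold, which by construction left 0 TIP genes lower. TIP1-1 lay between -0.31 and 0.03, TIP2-1 between -0.80 and -0.46 and TIP2-2 between -0.72 and -0.38, never called. The place-checked family, and ratios relative to the median of all models, were chosen after seeing the data. The former had 2 of 9 tested TIP genes higher, beside 7.97% of all tested models, with TIP3-1 added after its values were seen. The summed family ratio of -0.08 was -0.33 with total counts, -0.044 with DESeq2 size factors, -0.12 with upper-quartile factors and -0.11 without TIP1-1. Total-count scaling moved the median of all models by -0.25 and gave 1 other aquaporin higher and 2127 models lower. An interval beyond 1.5-fold gave 4 other aquaporins higher, with 3408 models higher and 2803 lower, and one beyond 4-fold gave 0 other aquaporins higher, with 792 models higher and 398 lower. The point estimate alone gave 3 other aquaporins higher and 2 lower of 16 tested, with 4322 models higher and 5556 lower. Intervals on deposited counts gave 2831 models higher and 2755 lower. No paired analysis was possible because each group has 1 library, and for the same reason no library could be left out. Depth limits TIP3-2, TIP4-2 and TIP5;1, whose salinity values rest on 5 read pairs or fewer.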

Other observations

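Among other transporters of the vacuole membrane, names were in place at 3 of 12 listed loci. These placements are not firm. The overlap was 43.0% for TPKb and 45.2% for TPKa, each with 1 anchor gene within 200 kb. CAX1a had 96.5% overlap but 0 anchor genes within 200 kb. TPKb, a potassium channel of vacuole membranes, had 348 control and 944 salinity counts. Its level was 7.03 CPM in control seedlings and 68.6 CPM under salinity, 9.75-fold higher, with a log2 ratio of 3.29 (interval 2.998 to 3.58). Its paralogue TPKa stood at 12.0 CPM and 16.3 CPM, with a log2 ratio of 0.44 (interval 0.0039 to 0.86). CAX1a, a calcium exchanger, stood at 72.7 CPM and 154 CPM, and the interval of its log2 ratio of 1.08 (0.94 to 1.22) crossed 2-fold, so neither was called.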
